A study of Mus musculus with 36 samples.

Results

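The genes described here are the constant genes of the immunoglobulin heavy and light chains and the gene of the J chain, which together report antibody production in a tissue. There are 10 of them among the 78239 genes of the deposited tables. They were chosen by symbol, and each symbol matched 1 Ensembl identifier. The heavy chain genes are Igha (IgA), Ighm (IgM), Ighd (IgD) and Ighg1, Ighg2b and Ighg2c (subclasses of IgG). The light chain genes are Igkc (kappa) and Iglc1 and Iglc2 (lambda), and Jchain encodes the small protein that links IgA or IgM units into polymers.

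RNA was measured in the heart, kidney and liver of male wild type mice of the inbred substrain C57BL/6NCrl, killed at ages of 8, 10 and 12 weeks. No animal carried a transgene or received a test agent. Each of the 9 combinations of tissue and age had 4 libraries, described as biological replicates, giving 36 in all. Blood was drawn behind the eye before the organs were removed, and no rinsing of the vessels is described, so blood cells can contribute RNA.

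An antibody pairs 2 identical heavy chains with 2 identical light chains, and the heavy chain constant gene in use sets the class. B cells that have not met antigen use Ighm and Ighd. After activation they can switch to Ighg or Igha, and plasma cells, the secreting end stage, transcribe the chosen constant gene, a light chain gene and often Jchain at very high rates. IgA is the main class of mucosal plasma cells. Polymeric IgA and IgM are carried across epithelia by the receptor encoded by Pigr. In bulk tissue, fewer cells of a type and less RNA per cell cannot be told apart.

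The feature that sets Igha and Ighm apart from the Ighg genes can be read in the last 60 coding bases of the secreted forms. These ends are shown because Igha, Ighm and Jchain are the genes on which the tissue comparison turns. Each is written 5′ to 3′ on the coding strand without the stop codon. The genome build is GRCm39, all 5 lie on the minus strand, and capitals mark a cysteine codon in the last position but 1. Polymers form through this cysteine, which J chain engages.
Igha, chr12:113222391-113222450: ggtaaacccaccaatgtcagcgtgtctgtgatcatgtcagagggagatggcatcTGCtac
Ighm, chr12:113384490-113384549: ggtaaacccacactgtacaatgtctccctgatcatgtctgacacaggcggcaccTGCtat
Ighg1, chr12:113292599-113292658: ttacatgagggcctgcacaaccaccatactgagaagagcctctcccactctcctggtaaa
Ighg2b, chr12:113270012-113270071: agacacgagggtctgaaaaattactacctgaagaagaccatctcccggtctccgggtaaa
Ighg2c, chr12:113251012-113251071: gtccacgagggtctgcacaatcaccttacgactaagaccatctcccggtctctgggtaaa

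Position by position, the ends of Igha and Ighm were identical at 41 of 60 bases, and the 3 Ighg ends were identical to each other at 41 to 46. Igha matched the Ighg ends at 11 to 13 of 60. The Ighg forms stop at the ggtaaa with which the Igha and Ighm tails begin, and they lack the capitalised codon. No stretch of 100 exon bases was shared exactly between any of the constant genes, so the classes could be counted apart.

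Depth lay between 21031599 and 33637390 counted read pairs per library. Levels are given as CPM, the count of a gene divided by the counted pairs of its library and scaled to 1000000. A count of 0 allows up to 3 counts, or 0.0892 to 0.143 CPM depending on the library, and such limits cover counting error only. Summed markers were highest in the labelled tissue. Heart markers summed to between 35439 and 47938 CPM in heart and at most 4.99 CPM elsewhere, and kidney markers to at least 22999 CPM in kidney and at most 6.04 CPM elsewhere. Liver markers summed to at least 70760 CPM in liver, 1624 to 2632 CPM in kidney, nearly all of it Cyp2e1, and 0.0388 to 21.8 CPM in heart. STAR, the aligner used by the authors, counts a pair only when it falls on a single gene. Pairs that span a variable and a constant gene are therefore left out, and the CPM of constant genes understate the transcripts.

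Igkc could not be read from the column without regard to strand, where it held 1 count in all 36 libraries. A long noncoding gene model on the opposite strand, Gm68839, covers 521 of the 532 exon bases of Igkc, and pairs in the overlap count for neither gene. In the 2 columns that use strand, each such pair is counted for Igkc once, and Igkc then held 5289 counts. For 8 of the other 9 genes the strand columns summed to exactly the total of the first column, and for Jchain they gave 2232 against 2231. Igkc values are therefore sums of the strand columns, an alternative chosen after seeing the data.

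Kidney held the highest levels of Igha, Igkc and Jchain, while Ighm led the heavy chain genes in heart and liver. Levels per kb of exon divide by all annotated exon bases of a gene, such as 532 for Igkc, 1326 for Ighg2c and 2668 for Igha. Orders and shares between genes therefore depend on these lengths. The kidney median over 12 libraries was 13.1 CPM per kb for Igkc, 3.85 for Igha, 2.00 for Ighm and 1.18 for Jchain. In counts not divided by length, Igha held 6533 and Igkc 4486 over the same 12 libraries. In liver the order was Igkc at 3.22, Ighm at 2.33, Igha at 0.572 and Jchain at 0.383 CPM per kb. In heart Ighm led with 2.46 CPM per kb, followed by Igkc at 1.47, Ighg2c at 1.08, Ighd at 0.296 and Igha at 0.172. The ranges show how far the organs overlapped. Igha in kidney spanned 1.37 to 26.2 CPM per kb, just clear of liver at 0.250 to 1.30, and liver overlapped heart at 0.0836 to 0.413. The share of all genes that separate between organs in this way was not counted. The ranges of Ighm overlapped in all 3 tissues.

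**Figure D1:**
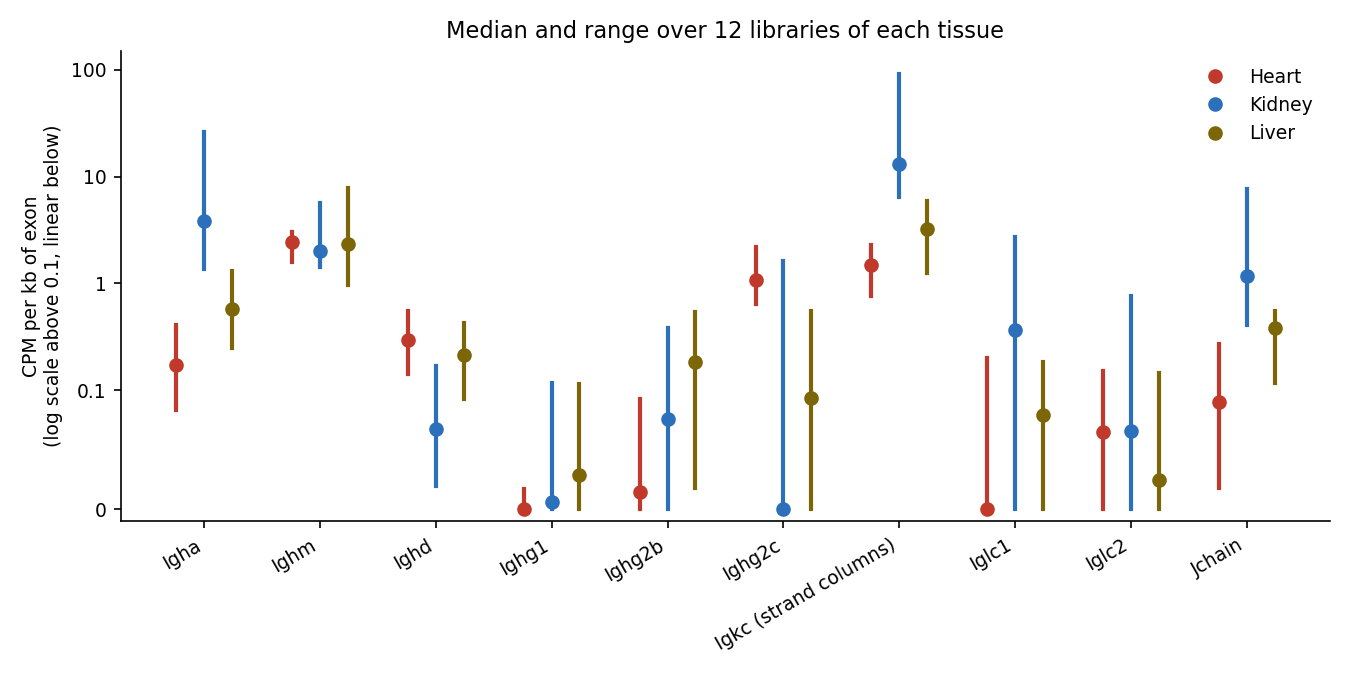
CPM per kb of exon for each of the 10 genes in heart, kidney and liver, on an axis that is logarithmic above 0.1 and linear below. Points are medians and lines the range over 12 libraries. Igha, Igkc and Jchain have their highest medians in kidney, Ighg2c in heart, and Ighm lies between 2.00 and 2.46 in all 3 tissues.

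The differences between tissues were tested with edgeR's quasi-likelihood test in a model of all 36 libraries, averaged over the ages, with Benjamini-Hochberg adjustment over 19716 genes. Most genes differ between organs, so the share of calls is high throughout. Between kidney and heart, 6 of the 7 genes tested passed an adjusted p of 0.05, against 86.1% of all genes. Igha was 18.7-fold higher in kidney (log2 difference 4.23, SE 0.32, adjusted p = 3.15e-14) and Jchain 10.0-fold higher (3.33, SE 0.33, adjusted p = 4.22e-11). Igkc, fitted from the strand columns, was higher by 3.12 (SE 0.28). Iglc1, a lambda light chain gene, was higher by 3.26 (SE 0.70, adjusted p = 8.20e-05). Iglc1 passed the count filter only through its 12-week kidney counts, so its higher level in kidney is no support. In the other direction Ighm was lower in kidney by -0.66 (SE 0.22), the naive B cell gene Ighd by -2.58 (SE 0.27) and Ighg2c by -4.50 (SE 0.58). The test scales the 36 libraries by TMM factors and the CPM do not, so tested differences between organs and CPM can disagree. For Ighm the mean over 12 libraries was 4.28 CPM in kidney and 4.53 in heart, and at 12 weeks 5.78 and 4.83.

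Between kidney and liver all 7 genes passed, against 83.1% of all genes. Igha was higher in kidney by 2.21 (SE 0.27) on the log2 scale, Jchain by 1.24 (SE 0.28) and Iglc1 by 1.61 (SE 0.55). Iglc1 again entered only through its 12-week kidney counts and is no support. In kidney Ighm was lower by -1.38 (SE 0.22), Ighd by -2.27 (SE 0.28) and Ighg2b by -1.80 (SE 0.51). The call on Ighg2c (-1.71, SE 0.79, adjusted p = 0.0463) rested on few counts and was lost when any of several libraries was left out or a single strand column was used. Liver exceeded heart for 4 of 7 genes and was lower for 1, with 84.2% of all genes called. Iglc1, at 1.66 (SE 0.85, adjusted p = 0.0714), was also called by limma-voom (adjusted p = 0.0449). Igha was 4.06-fold, Jchain 4.26-fold, Ighg2b 7.60-fold and Ighm 1.65-fold higher in liver, while Ighg2c was lower by -2.80 (SE 0.50) on the log2 scale.

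The class make-up also differed between the organs. As a share of heavy chain counts per kb, Igha had a median of 55.7% in kidney (range 39.4% to 88.1% over 12 libraries), 15.5% in liver (5.36% to 21.6%) and 4.32% in heart (1.71% to 10.4%). Ighm made up 38.3% in kidney, 68.3% in liver and 57.7% in heart. The IgG genes were a minor part in kidney, at 1.96%, and 8.30% in liver, but 28.3% in heart, where Ighg2c alone gave 27.4%. Such shares are descriptions that depend on the exon lengths used, and they were not tested.

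**Figure D2:**
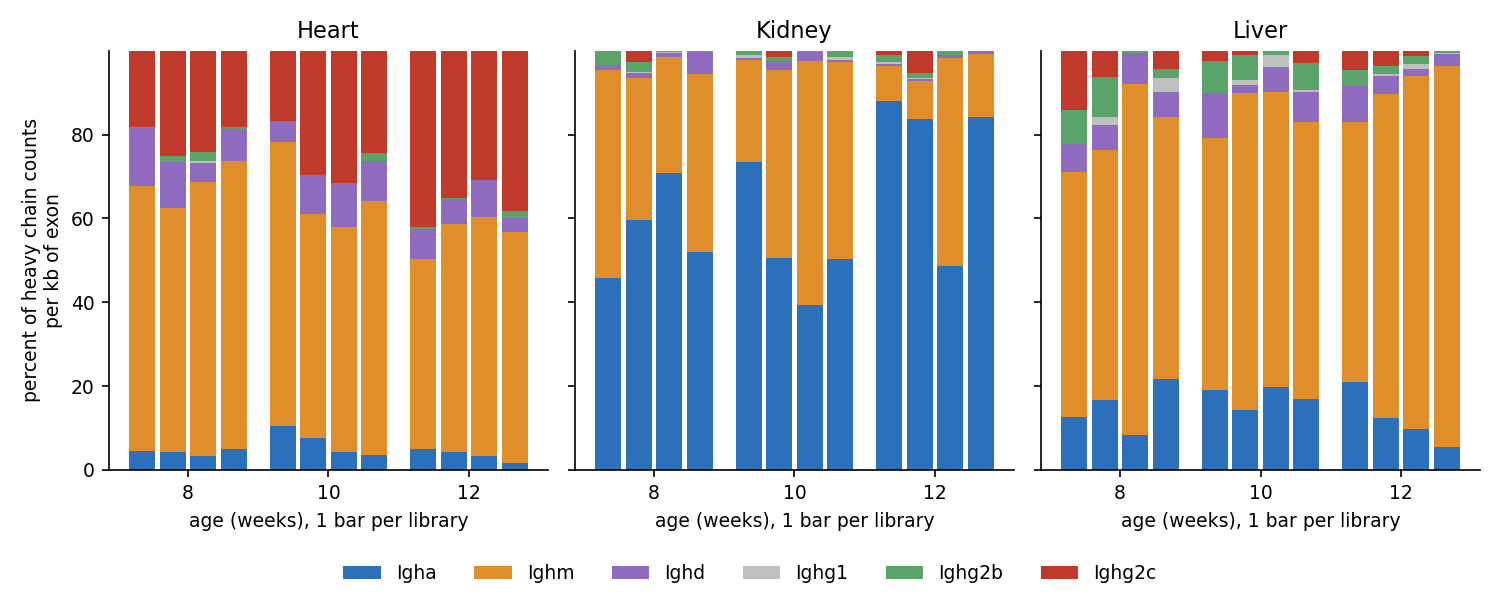
Share of each heavy chain constant gene in the heavy chain counts per kb of exon, in percent, with 1 bar per library grouped by age, for heart, kidney and liver. Igha fills most of the bar in kidney libraries of 12 weeks except replicate 3, Ighm is the largest part in all heart and liver libraries, and the Ighg2c part of the heart bars has its largest median at 12 weeks.

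The light chains and Jchain gave further contrasts between the organs. Kappa made up nearly all light chain counts per kb, with medians of 96.7% in kidney, 96.2% in liver and 94.3% in heart. Igkc per heavy chain count, both per kb, was 2.13 in kidney (1.81 to 2.93), 0.697 in liver (0.283 to 2.06) and 0.364 in heart (0.227 to 0.495). The heart and kidney ranges of this ratio did not overlap, which was not set against other genes. Jchain per heavy chain count, also per kb, was 0.200 in kidney (0.118 to 0.272), 0.0871 in liver (0.0239 to 0.171) and 0.0219 in heart (0.00576 to 0.0870). Per Igha alone, a ratio chosen after its values were seen, Jchain was 0.300 in kidney, 0.572 in liver and 0.723 in heart, where Igha held as few as 6 counts in a library.

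With age, the kidney genes Igha, Igkc and Jchain stood out. Igha at 8 weeks was 5.11, 8.93, 11.6 and 4.60 CPM in the 4 kidney libraries, and at 10 weeks 17.1, 4.77, 3.66 and 6.03 CPM. At 12 weeks the values were 48.2, 69.8, 14.8 and 29.7 CPM, all above every 8-week library but with replicate 3 below the highest 10-week library. The means were 7.56 ± 3.32, 7.88 ± 6.20 and 40.6 ± 23.8 CPM (SD, n = 4).

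Jchain followed the same order of libraries at 12 weeks. It read 2.63, 1.78, 3.30 and 1.42 CPM at 8 weeks, 4.23, 1.54, 1.03 and 2.66 at 10 weeks, and 14.0, 19.3, 4.14 and 6.89 at 12 weeks. Igkc read 4.13, 6.99, 6.94 and 3.63 CPM at 8 weeks, 13.0, 3.68, 3.43 and 5.11 at 10 weeks, and 30.0, 48.7, 10.9 and 18.6 at 12 weeks. For all 3 genes the 12-week libraries lay above all 8-week libraries, a separation in this direction that 3.66% of the 17649 genes tested in kidney showed.

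**Figure D3:**
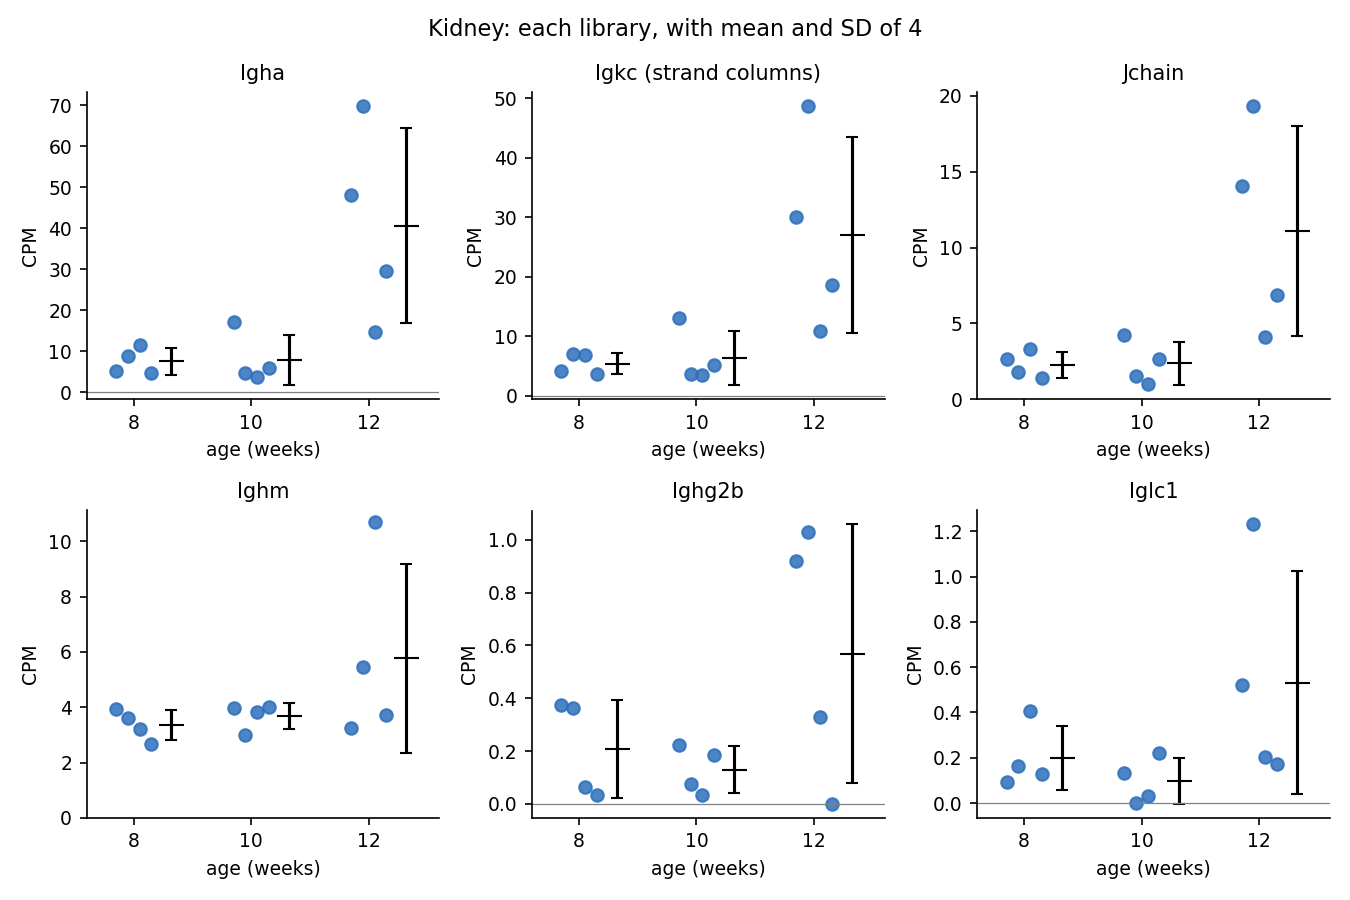
CPM of 6 genes in each kidney library at 8, 10 and 12 weeks, with the mean and SD of 4 libraries beside the points. Igha, Igkc and Jchain reach 69.8, 48.7 and 19.3 CPM at 12 weeks in replicate 2, whereas the highest Ighm value, 10.7 CPM, belongs to replicate 3.

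These differences were large but did not pass the test across all genes. Between 12 and 8 weeks, edgeR's quasi-likelihood test gave Igha a log2 fold change of 2.43 (SE 0.51, 5.41-fold, adjusted p = 0.110), Jchain 2.31 (SE 0.48, 4.95-fold, adjusted p = 0.110) and Igkc 2.34 (SE 0.47, 5.06-fold, adjusted p = 0.107). By p, Jchain and Igha ranked 41 and 43 of 17649 genes. None of the 6 genes tested passed, against 0.0567% of all genes, while 4 of 6 had an unadjusted p under 0.05, as did 11.7% of all genes. DESeq2 called 2 of the 6, Igha (adjusted p = 0.0129) and Jchain (adjusted p = 0.0122), and 0.737% of all genes, so the call depended on the tool. Of the 6, Ighg2b, Ighg2c and Iglc1 entered the test only through their 12-week counts and had to be higher there, so their number is no support.

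Between 12 and 10 weeks the same genes had log2 fold changes of 2.44 (SE 0.51) for Igha, 2.30 (SE 0.48) for Jchain and 2.17 (SE 0.47) for Igkc, with adjusted p of 0.0533, 0.0533 and 0.0566. Again 0 of 6 passed, with 0.482% of all genes called, and DESeq2 called Igha and Jchain, with 3.72% of all genes. The 6 had an unadjusted p under 0.05, as did 16.4% of all genes, but Ighg2b, Ighg2c and Iglc1 again entered only through their 12-week counts and are no support. Without replicate 3 of the 12-week kidneys, the lowest of them, both passed in edgeR (adjusted p = 0.0407 and 0.0391). Without replicate 2, the highest, Igha was at 2.03 with an adjusted p of 0.156. Between 10 and 8 weeks Igha differed by -0.01 (SE 0.53) and Jchain by 0.00 (SE 0.53), and 0 of 6 genes passed or had an unadjusted p under 0.05, with 0.929% of all genes called by edgeR and 16.5% at that unadjusted p, and 0 of the 6 and 3.76% of all genes by DESeq2.

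Igha, Igkc and Jchain moved together from library to library. Ordered by CPM, the 12 kidney libraries fell in the same order by Igha and by Igkc except that replicates 2 and 3 of 8 weeks changed places. The log2 CPM of Igha, scaled by TMM factors, correlated with that of Igkc with Pearson's r of 0.99 over 12 libraries and 0.98 over the 8 libraries of 8 and 10 weeks alone. For Igha and Jchain the values were 0.97 and 0.83. Both genes of a point come from 1 library, so these values are descriptions. The ratio of Jchain to Igha was steady across ages, with medians of 0.314, 0.320 and 0.296 per kb at 8, 10 and 12 weeks. Ighm correlated less with Igha, with r of 0.32.

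**Figure D4:**
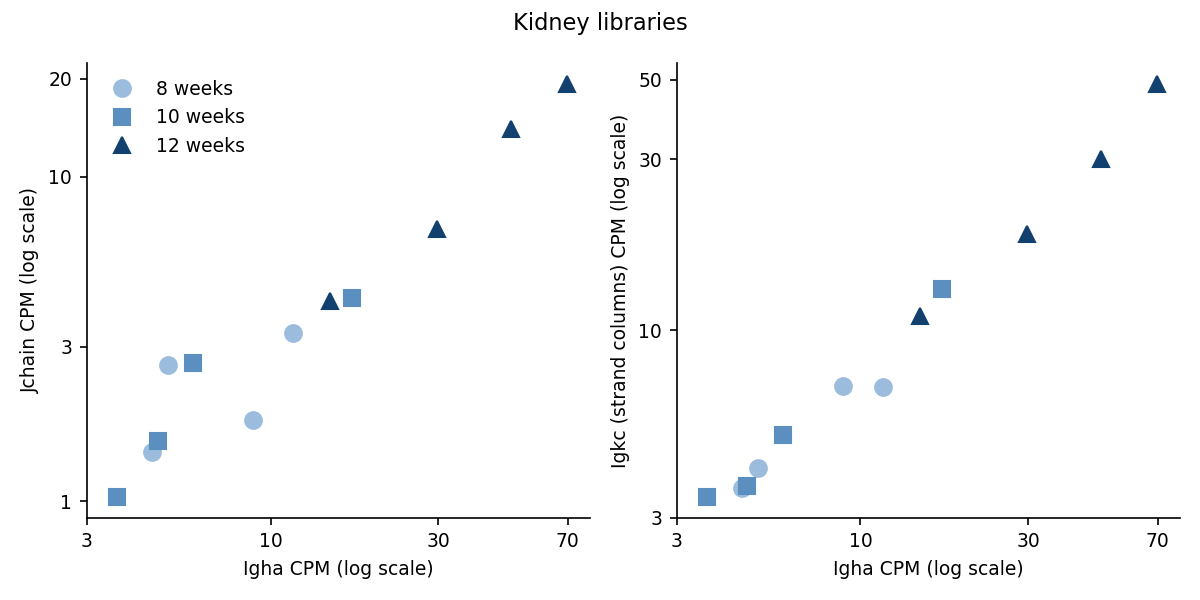
Jchain (left) and Igkc (right) against Igha in the 12 kidney libraries, in CPM on logarithmic axes, with symbols for age. The points lie along a line in both panels, and the 12-week library with the least Igha, 14.8 CPM, sits beside the 10-week library with the most, 17.1 CPM.

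Ighm in kidney behaved differently from Igha. It held 3.94, 3.60, 3.21 and 2.67 CPM at 8 weeks, 3.96, 3.00, 3.82 and 4.00 at 10 weeks, and 3.24, 5.45, 10.7 and 3.72 at 12 weeks. The 12-week library with the highest Ighm was replicate 3, which had the lowest Igha. The log2 fold change between 12 and 8 weeks was 0.80 (SE 0.30, adjusted p = 0.339), and without this library it was 0.34. Igha made up 83.9% of the heavy chain counts per kb at 12 weeks in the median, against 55.7% at 8 weeks and 50.4% at 10 weeks, with 48.6% in replicate 3.

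The IgG and lambda genes of the kidney were scarce. Ighg2c had 65 counts, or 2.16 CPM, in replicate 2 of 12 weeks, 8 counts in replicate 1, and 7 counts in the other 10 libraries together. Ighg2b ranged from 0 to 1.03 CPM and Iglc1 from 0 to 1.23 CPM, both with their highest value in the same replicate 2. Ighd (0.0370 to 0.322 CPM), Ighg1 (0 to 0.306 CPM) and Iglc2 (0 to 0.465 CPM) stayed below the count filter. The 218 genes of immunoglobulin variable segments, which recombination joins to the constant genes, had a summed median of 7.66 CPM at 8 weeks, 5.39 at 10 weeks and 34.4 at 12 weeks in kidney. Counts fell on 118, 120 and 162 of them at the 3 ages.

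Genes that describe the antibody-producing cells gave no called change in kidney. Of 12 plasma cell genes 10 were tested and 0 passed at 12 against 8 weeks. Of the 10, 8 had a log2 fold change above 0, and the median was 0.21 against 0.00 over all genes. Xbp1, a transcription factor of the secretory pathway also used in epithelia, had the highest level of this list and a log2 fold change of 0.27 (SE 0.16, adjusted p = 0.536), and Sdc1, a proteoglycan of plasma cells and epithelia, -0.16 (SE 0.12, adjusted p = 0.641). Tnfrsf17, the receptor BCMA of plasma cells, had 0 to 7 counts in a kidney library. Of 14 B cell genes, 2 were tested, the complement receptor gene Cr2 (0.27, SE 0.24) and the antigen receptor subunit gene Cd79b (0.87, SE 0.30), and neither passed. Ms4a1, the B cell gene of CD20, had at most 4 counts in a kidney library. Between 10 and 8 weeks, 8 of the 10 plasma cell genes had a log2 fold change above 0 (median 0.23). The same held for 2 of the 2 B cell genes (median 0.57), and 0 passed in either list.

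Marker sums of other cell types were set beside the 12-week kidney values. T cell markers summed to 3.80 to 5.25 CPM at 8 weeks and 5.15 to 8.67 CPM at 12 weeks, with the highest sum in replicate 2. Of 9 genes tested 0 passed, but 8 had a log2 fold change above 0, with a median of 0.58 against 0.00 over all genes. The 2 with the highest level were Cd8a (0.46, SE 0.29) and Trac (-0.01, SE 0.26). The T cell sums were already 5.97 to 7.73 CPM at 10 weeks. Against 8 weeks, 9 of these 9 genes were then above 0, with a median of 0.60, and 0 passed. Lymph node markers spanned 4.42 to 6.50 CPM at 8 weeks and 5.15 to 7.01 CPM at 12 weeks, with Fdcsp at 0 in all kidney libraries and 0 of 3 genes called, Ccl21a (0.10, SE 0.25) and Ccl19 (0.98, SE 0.43) having the highest levels. Macrophage markers summed to 96.9 to 105 CPM at 8 weeks and 109 to 134 CPM at 12 weeks, and 0 of 6 passed, with Csf1r at 0.26 (SE 0.08, adjusted p = 0.281) and C1qb at 0.29 (SE 0.15). Brown fat markers reached 46.1 CPM in replicate 2 of 8 weeks and 19.6 CPM in replicate 1 of 12 weeks. They lay at 0.465 to 0.716 CPM in the other 12-week libraries. Ucp1 (-1.25, SE 1.46) and Cidea (-0.74, SE 1.32) led them and did not pass. Without replicate 1 of 12 weeks, Igha had a log2 fold change of 2.36 (edgeR adjusted p = 0.172). With each of the 12 kidney libraries left out in turn, replicate 2 of 8 weeks among them, it ranged from 2.03 to 2.75. The part of these cell types in the result was not tested.

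Genes that move or guide antibody were also measured. Of 11 genes of immunoglobulin transport and Fc receptors, 10 were tested in kidney and 0 passed at 12 against 8 weeks (median 0.27). The 2 with the highest level were B2m (0.19, SE 0.11) and Fcgrt (-0.12, SE 0.08), which form the neonatal Fc receptor that keeps IgG in circulation. Pigr, named here after its values were seen because it carries polymeric IgA, ranged from 107 to 173 CPM at 8 weeks and from 187 to 261 CPM at 12 weeks. These ranges did not overlap, a separation in this direction that 3.66% of the 17649 genes tested in kidney showed. Since Pigr was picked after its values were seen, its separation is no support. The log2 fold change was 0.57 (SE 0.13, adjusted p = 0.141). Of 14 genes of class switching, homing and survival, 11 were tested and 0 passed. Cxcl12, a chemokine that retains plasma cells, was at 0.07 (SE 0.14), and Ccl28, a chemokine that draws IgA plasma cells to epithelia, at 0.81 (SE 0.34, adjusted p = 0.381), from 21.8 to 58.1 CPM at 8 weeks to 45.6 to 104 CPM at 12 weeks.

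In heart, Ighg2c was the gene that changed with age. It held 0.892, 0.912, 0.983 and 0.855 CPM at 8 weeks, 0.881, 1.24, 2.22 and 1.61 at 10 weeks, and 2.93, 2.13, 1.91 and 2.49 at 12 weeks. All 12-week libraries lay above all 8-week libraries, as was true in this direction for 6.92% of the 15137 genes tested in heart, and the 10-week libraries lay across both ranges. Ighg2c rose by 1.34 (SE 0.25, 2.54-fold, adjusted p = 0.00938 by edgeR) from 8 to 12 weeks on the log2 scale. It was the 1 of 5 genes tested that passed, against 4.56% of all genes. It was also the 1 of 5 with an unadjusted p under 0.05, as had 23.4% of all genes, and the 1 called by DESeq2, which called 8.22% of all genes. DESeq2 gave no adjusted p to Igha, Ighd and Jchain in heart, so these could not be called by it. The call on Ighg2c held in each of the 22 fits made for this contrast, with adjusted p up to 0.0340.

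None of the other genes of an antibody passed the test in heart. Ighm read 4.42, 3.01, 3.80 and 4.58 CPM at 8 weeks and 4.49, 4.69, 5.04 and 5.09 at 12 weeks, a log2 fold change of 0.27 (SE 0.17, adjusted p = 0.350). Igkc, without which an antibody with a kappa chain cannot form, was at 0.57 (SE 0.34, adjusted p = 0.321) and overlapped between these ages. Jchain was at 0.17 (SE 0.65), Igha at 0.26 (SE 0.41) and Ighd at -0.03 (SE 0.41). As a share of heavy chain counts per kb, the medians of Ighg2c were 21.2%, 27.1% and 36.7% from the youngest to the oldest group. The other IgG genes stayed scarce, with Ighg2b at 0 to 6 counts and Ighg1 at 1 count in all 12 heart libraries.

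**Figure D5:**
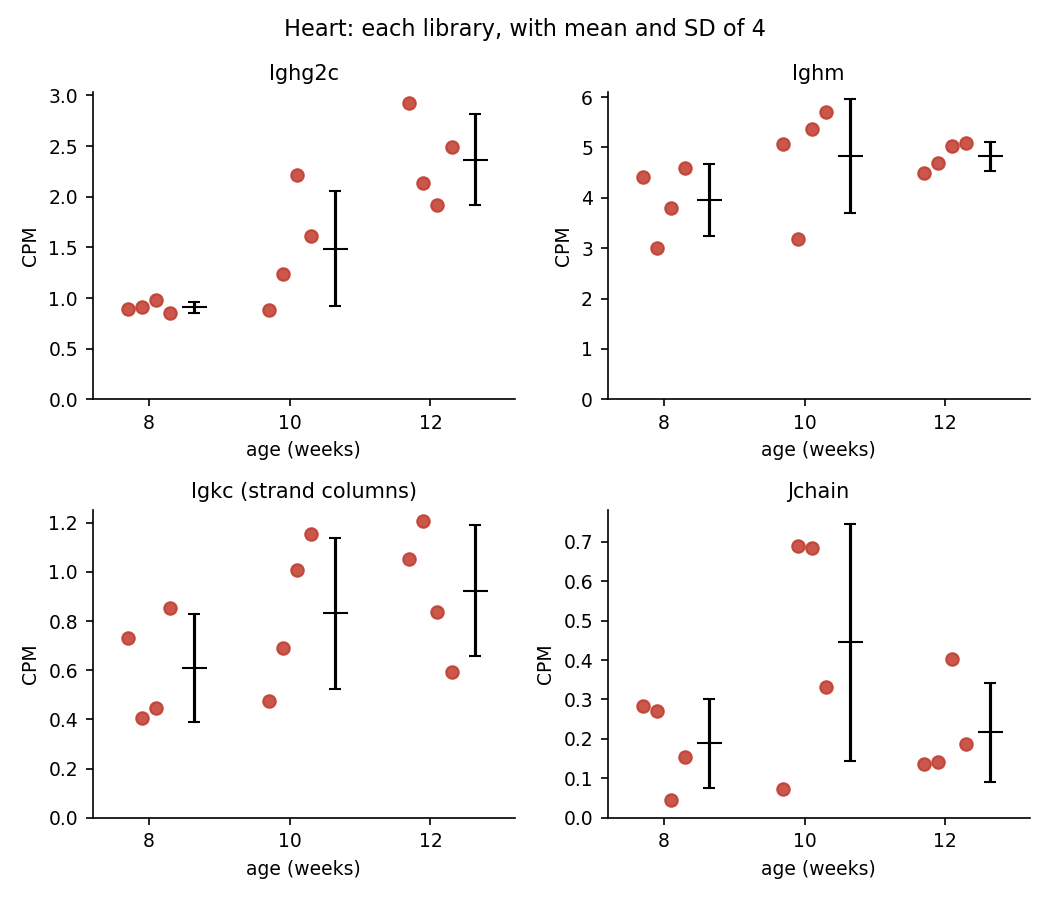
CPM of Ighg2c, Ighm, Igkc and Jchain in each heart library at 8, 10 and 12 weeks, with the mean and SD of 4 libraries beside the points. Ighg2c lies between 0.855 and 0.983 at 8 weeks and between 1.91 and 2.93 at 12 weeks, while the ranges of the other 3 genes overlap between these ages.

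At 10 against 8 weeks in heart, 0 of 5 genes passed with 1.06% of all genes called, and 2, Igha and Ighg2c, had an unadjusted p under 0.05, as did 15.8% of all genes. Igha passed the count filter in heart only through its 10- and 12-week counts, and Jchain only through its 10-week counts. Their higher 10-week values are therefore no support. At 12 against 10 weeks 0 of 5 passed with 0.0396% of all genes called, and of the 5 Ighg2c alone had an unadjusted p under 0.05, as did 11.7% of all genes. DESeq2 called 0 of 5 in both, with 2.42% and 0.357% of all genes. It gave no adjusted p to Igha, Ighd and Jchain in heart, so these could not be called by it. B cell genes summed to 2.94 to 6.28 CPM in heart at 8 weeks and 3.86 to 6.62 CPM at 12 weeks, and 0 of 6 tested passed. The 2 with the highest level were Blk, a kinase of the B cell receptor (0.92, SE 0.34, adjusted p = 0.116), and Bank1, an adaptor of the same pathway (-0.41, SE 0.33). Of 9 plasma cell genes tested 0 passed at 12 against 8 weeks, and 6 had a log2 fold change above 0, with a median of 0.17. The 2 with the highest level were Xbp1 (0.17, SE 0.12) and Sdc1 (-0.41, SE 0.12, adjusted p = 0.0590).

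Among the other lists in heart, Cxcl12 rose by 0.50 (SE 0.11, adjusted p = 0.0200) from 8 to 12 weeks and by 0.52 (SE 0.11, adjusted p = 0.0275) from 8 to 10 weeks. It was the only 1 of 7 genes of class switching, homing and survival that passed there. Kap, an androgen-regulated gene of the kidney tubule and 1 of 4 kidney markers, also rose in heart (6.15, SE 1.28, adjusted p = 0.0173), from at most 0.0811 CPM at 8 weeks to between 0.369 and 5.68 CPM at 12 weeks. Liver markers summed to at most 0.402 CPM in heart at 8 weeks, 1.10 to 21.8 CPM at 10 weeks and 0.269 to 3.38 CPM at 12 weeks. Of them Cyp2e1, an enzyme of the cytochrome P450 family, rose from 8 to 10 weeks (3.43, SE 0.50, adjusted p = 0.00310). Of the heart markers, Ryr2, the calcium release channel, rose from 8 to 12 weeks (0.48, SE 0.10, adjusted p = 0.0156). The part of RNA from kidney or liver in the heart values was not tested.

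In liver, Ighm had the widest range in CPM of the 10 genes. It read 4.31, 3.86, 4.80 and 1.81 CPM at 8 weeks, 2.80, 12.9, 4.49 and 4.20 at 10 weeks, and 3.91, 14.6, 14.5 and 8.44 at 12 weeks. Of the 12-week libraries 3 lay above all 8-week libraries and replicate 1 lay among them. The log2 fold change was 1.53 (SE 0.51, 2.88-fold, adjusted p = 0.196). Of 5 genes tested 0 passed at 12 against 8 weeks, with 0.239% of all genes called. An unadjusted p under 0.05 was reached by 1 of the 5 and 15.1% of all genes, and DESeq2 called 0 of the 5 and 2.88% of all genes.

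Igha in liver overlapped between all ages. It held 1.30, 1.52, 0.666 and 0.884 CPM at 8 weeks, 1.26, 3.48, 1.78 and 1.53 at 10 weeks, and 1.85, 3.27, 2.37 and 0.703 at 12 weeks, with a log2 fold change of 0.92 (SE 0.45, adjusted p = 0.351) between 12 and 8 weeks. Igkc was at 0.65 (SE 0.43), Ighd at 0.37 (SE 0.40), Jchain at 0.22 (SE 0.45) and Ighg2b at -0.36 (SE 0.84). At 10 against 8 and 12 against 10 weeks 0 of 5 passed, with 0.0204% and 0.0545% of all genes called. At an unadjusted p under 0.05 there were 0 of 5, with 14.3% and 14.1% of all genes, and DESeq2 called 0 of 5, with 2.43% and 3.31%. Of 4 B cell genes tested 0 passed at 12 against 8 weeks, and 3 had a log2 fold change above 0, with a median of 0.42. The median over all genes was -0.004. The 2 B cell genes with the highest level were Bank1 (-0.52, SE 0.30) and Cd22, an inhibitory receptor (0.18, SE 0.35). Pigr and B2m led the transport list with log2 fold changes of 0.26 (SE 0.11, adjusted p = 0.316) and 0.33 (SE 0.11, adjusted p = 0.199).

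The change from 8 to 12 weeks was compared between the organs by an interaction term. The log2 fold change of Jchain was 2.07 higher in kidney than in liver (SE 0.68, adjusted p = 0.184 by edgeR), and that of Igha 1.51 higher (SE 0.68, adjusted p = 0.387). Against heart, Igha differed by 2.17 (SE 0.91, adjusted p = 0.365) and Jchain by 2.13 (SE 0.97, adjusted p = 0.406). With 0.112% of all genes called between kidney and heart, 0.304% between kidney and liver and 4.16% between liver and heart, 0 of 7 genes passed in each pair. The numbers with an unadjusted p under 0.05 were 2, 3 and 1 of 7, against 11.1%, 11.2% and 18.4% of all genes. Limma-voom also called 0 of 7, with 0.264%, 0.365% and 3.31% of all genes. A difference between organs in the change of these genes was thus not shown.

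Library numbers recur across the organs, and the relation between organs was tested on deviations from the mean of each tissue and age. The labels do not say whether a number is an animal. Of 15 relations over 12 numbers, none passed after adjustment. The strongest was Jchain in kidney and heart, with Pearson's r of -0.76 (exact permutation p = 0.00673, adjusted 0.101) and Spearman's rho of -0.77 (exact permutation p = 0.00911, adjusted 0.137), and r stayed at -0.76 without the 2 numbers farthest from the median. Igha in kidney and liver had r of -0.15 and rho of -0.17 (exact permutation p = 0.713 and 0.635), and Igkc r of -0.12 and rho of -0.18 (exact permutation p = 0.772 and 0.608).

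The genes outside the immunoglobulin loci whose log2 CPM was most like that of Igkc were ranked by Pearson's r over the 12 libraries of each tissue, among genes with a mean of at least 1 CPM. In kidney, Jchain ranked 1 of 14203 genes with r of 0.96. It was followed by Sharpin, Rhoc, Reln and Ces2c, with r between 0.89 and 0.95, whose levels varied far less than those of Jchain, such as 26.9 to 30.3 CPM for Sharpin. In heart the 5 were Prkcq, Slamf9, Gm67348, C5ar2 and Dcaf1 (0.84 to 0.88), and in liver Zfp617, Slc8b1, Gm16332, Ube2l6 and Scpep1 (0.82 to 0.89). Jchain was not among the 5 in heart or in liver. With so many genes and 12 libraries such values are descriptions.

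Other constant genes of the same loci were close to absent. Ighg3 held 0 to 3 counts and the lambda gene Iglc3 0 to 3 counts in any library, the IgE gene Ighe held 0 counts in all 36, and Iglc4 likewise. Igll1, a surrogate light chain gene of precursor B cells, had 1 to 15 counts in each kidney library and at most 1 elsewhere. None of these genes passed the count filter in any tissue.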

How the data were processed

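RNA with a poly(A) tail was sequenced as read pairs. The authors checked reads with FastQC 0.11.9, trimmed them with cutadapt 4.2 and aligned them with STAR 2.7.11b to GRCm39 (versions from the submitters' processing notes), and deposited raw counts per gene, not normalized, with strand ignored in the first of 3 columns and used in the others. The first was used here, and Igkc was taken from both strand columns. Symbols, positions and exon lengths came from GENCODE vM39 on the same build.

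In each tissue, genes with a mean count of at least 10 and at least 2 samples above 0 in 1 age group were kept. Ages were compared with edgeR 4.0.16 (TMM, estimateDisp, glmQLFit and glmQLFTest) in R 4.3.3 at an adjusted p (Benjamini-Hochberg over all genes kept) under 0.05. The fits were tested on simulated data. Alternatives were DESeq2 1.42.0, limma-voom (limma 3.58.1), RLE factors, other filters, 2 ages only, a replicate block, 1 strand and each library left out. Log2 CPM used a prior count of 2. From the other lists described, genes past the adjusted p and otherwise the 2 tested genes with the highest level were named. DESeq2 gave no adjusted p to some genes with low counts, Igha, Ighd and Jchain in heart among them, and these could not be called by it. The genes and lists were chosen with earlier results of these data known. A gene of the B cell list is not reported here by name.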

Additional observations from a re-analysis of the deposited data

Results flagged for a closer look

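Of 57 sets of 4 libraries examined, 4 held a library whose gap to the nearest other exceeded Dixon's critical value as a share of the range, where chance flags about 1 in 20. Ighg2c in kidney gave 3 of these, always replicate 2: 0.202 CPM at 8 weeks and 0.0751 CPM at 10 weeks, with 0 counts in the other 3 libraries each time, and 2.16 CPM at 12 weeks, where the others spanned 0 to 0.245 CPM. The first 2 values rest on 5 and 2 counts. With 0 in all the other libraries the share is 1.0 whatever the count, so the rate of 1 in 20 does not hold for these 2 flags. In liver at 10 weeks, Ighm was 12.9 CPM in replicate 2 against 2.80 to 4.49 CPM in the others.

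Igkc was also singled out because its signal lies outside the column used for the comparisons. The strand columns gave up to 48.7 CPM in a kidney library, and at least 3.43 CPM in each of them, where the column without regard to strand held 1 count in all.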

How the results depend on the processing

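The count of immunoglobulin genes called was within 1.5 times of the main count in 426 of 435 recomputed counts. In kidney at 12 against 8 weeks it moved from 0 to 4 without the count filter and to 2 with DESeq2. At 12 against 10 weeks in kidney it moved to 7 without the filter, to 2 with DESeq2 and to 2 with a single strand column, and from 0 to between 0 and 2 with a library left out. In liver at 12 against 8 weeks it moved to 1 without the filter. Over all genes the same choices moved the calls in kidney at 12 against 8 weeks from 10 to 513 without the filter and to 130 with DESeq2, at 12 against 10 weeks from 85 to 938 and 657, in heart at 12 against 8 weeks from 691 to 1133 and 1245, and in liver at 12 against 8 weeks from 35 to 330 and 423. The cause was not tested. Between tissues, leaving out a library gave 5 to 7 calls for kidney and heart, 6 to 7 for kidney and liver and 5 for liver and heart.

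Among the changes with age of single genes, 8 of 440 recomputed values turned the sign, none of them of a called value. With a library left out, Ighd in heart ranged from -0.25 to 0.31, Jchain in heart from -0.33 to 0.40 and Ighg2b in liver from -0.70 to 0.12, all at 12 against 8 weeks, and Ighg2b in liver was 0.061 with limma-voom. Replicate numbers recur across ages, but libraries of a number did not deviate together (r from -0.27 to 0.17), so they were not taken as pairs, and with a replicate block the calls among the 10 genes stayed at 1 in heart, 0 in kidney and 0 in liver at 12 against 8 weeks, while the calls over all genes in kidney went from 10 to 4. Across organs, r between libraries of a number was -0.00 to 0.26 over all genes. Within an age, libraries correlated best with their own number in 12 of 12 cases for kidney and liver, 10 of 12 for kidney and heart and 7 of 12 for heart and liver, a hint from the data and not from the design. A block by library number left 0 of 7 calls on the change with age, and for liver and heart it added Iglc1 (adjusted p = 0.0252), as limma-voom did. Of 30 recomputed relations between organs none passed the adjusted p and 3 turned the sign, none of them past the test in the main analysis: without the 2 farthest library numbers r was 0.031 for Ighg2c in kidney and heart and -0.053 for Ighm in kidney and liver, and without TMM factors it was 0.038 for Jchain in kidney and liver. The p-values between ages and between organs rest on the spread among libraries within groups of 4, pooled over the groups of a fit. Those of the relations rest on permuting the library numbers within ages. Genes below the count filter were not compared at this depth.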
